A study of Mus musculus with 25 samples.

Results

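Gastrocnemius muscles of 25 mice were ordered by the level of Myh7, the slow (type I) myosin heavy chain, and the 8 muscles with the highest level were compared with the 8 with the lowest. These 16 of the 25 muscles are called Myh7-high and Myh7-low mice here, and the 9 mice between them were kept apart. All animals were male SAMP8 mice, an inbred strain with accelerated senescence. From 8 months of age 14 of them (Thymol) were gavaged with thymol, at 20 mg/kg on each day of dosing, and 11 (Control) with corn oil as vehicle, for 3 months. Each muscle gave 1 library of QuantSeq 3′ mRNA sequencing, in which reads mark the 3′ ends of polyadenylated transcripts. Each mouse is named by its treatment and the number at the end of its label.

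The gastrocnemius of a mouse consists mostly of fast fibres, and its slow fibres lie mainly in a small deep region. A slow fibre builds its sarcomere from its own set of myosin, troponin and tropomyosin isoforms, clears calcium with a slower pump, and draws its energy mainly from mitochondria. Fast fibres of the type IIb kind contract quickly and rely on glycogen and glycolysis. In a bulk sample, fewer cells of a type and less RNA per cell cannot be told apart, so the level of Myh7 measures slow-fibre RNA and not a count of fibres.

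The muscles were chosen on Myh7 itself, so its levels are a description. In the Myh7-high mice Myh7 had a lowest value of 8.70, a median of 9.46 and a highest value of 10.08 log2 CPM (the log to base 2 of read counts scaled to library size), or 3184 to 8394 reads. In the Myh7-low mice the lowest value was 1.68, the median 7.0 and the highest 7.53, or 27 to 1423 reads. The last mouse inside the upper group, Control 1, lay at 8.70 and the first outside it, Control 19, at 8.69. At the lower edge, Thymol 24 was inside at 7.53 and Thymol 26 outside at 7.76. The upper edge therefore passes between muscles that hardly differ, whereas the lowest muscle, Thymol 20 with 27 reads, stood far from all others.

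The label of slow-fibre content was checked on Tnnt1, Tnni1 and Myl2, which encode the slow troponin T, the slow troponin I and the slow regulatory myosin light chain. Tnnt1 ranged from 9.36 to 10.79 log2 CPM in the Myh7-high mice (median 10.17) and from 2.83 to 8.23 in the Myh7-low mice (median 7.69). Tnni1 ranged from 7.499 to 8.86 (median 8.11) against 1.29 to 6.17 (median 5.70). Myl2 ranged from 8.12 to 9.63 (median 9.11) against 2.74 to 7.28 (median 6.89). None of these genes overlapped between the groups, and ranking the mice by the mean of the 3 genes in place of Myh7 selected the same 16 mice. The log2 differences were 3.08 ± 0.53 for Tnnt1 (SE, n = 8 and 8, adjusted p = 0.00387), 3.05 ± 0.49 for Tnni1 (adjusted p = 0.00209) and 2.88 ± 0.46 for Myl2 (adjusted p = 0.00209), from limma with treatment as a covariate and Benjamini-Hochberg adjustment over all genes. Without Thymol 20 the fold difference of Tnnt1 went from 8.49 to 5.52 (adjusted p = 1.086e-07).

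**Figure D1:**
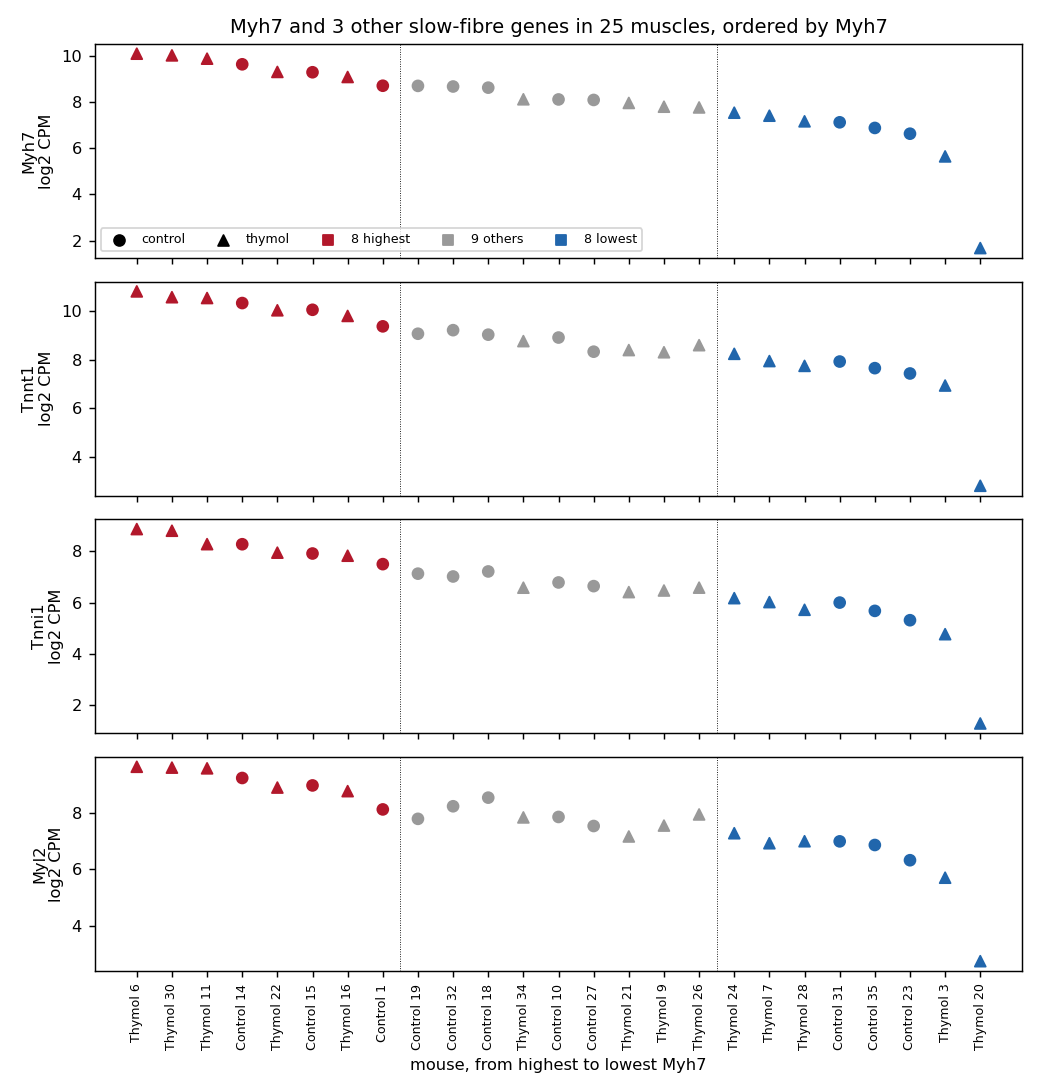
Levels of Myh7, Tnnt1, Tnni1 and Myl2 in log2 CPM (vertical axes) in all 25 muscles, ordered from the highest to the lowest Myh7; circles are control mice, triangles thymol mice, and colours mark the 8 highest, the 9 others and the 8 lowest. The other slow-fibre genes follow the order of Myh7 closely, and Thymol 20, at 1.68 for Myh7 and 2.83 for Tnnt1, lies below every other muscle.

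The adult myosin heavy chains give the size of the shift. Because 3′ reads do not grow with transcript length, the reads of Myh7, Myh2 (type IIa), Myh1 (type IIx) and Myh4 (type IIb) can be set in proportion. Sequence shared between the 3′ ends of Myh2, Myh1 and Myh4 was not checked, and it could bias these proportions. Myh7 took 1.14% to 3.75% of these reads in the Myh7-high mice (median 2.23%) and 0.00805% to 0.527% in the Myh7-low mice (median 0.319%). Myh4 was the main form in every muscle, at 80.5% to 91.0% (median 87.6%) against 88.8% to 95.8% (median 93.6%). The share of Myh2 ran from 4.64% to 8.99% (median 6.45%) against 1.13% to 5.90% (median 2.86%), and the share of Myh1 had medians of 3.58% and 3.81%. By RNA the Myh7-high muscles were still mainly type IIb, with a small slow component and with shares of Myh2 that lay mostly above those of the Myh7-low muscles.

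No difference between the groups was found in the measures that describe the libraries. Each held 5 thymol and 3 control mice (Fisher's exact test, two-sided, p = 1). Depth over all 25 muscles was 4463818 to 9463418 reads, and the high minus low difference in depth had p = 0.776, that in the share of reads from the mitochondrial genome p = 0.624, and that in library number p = 0.252 (exact permutation tests, two-sided, 12870 permutations, adjusted p = 0.757 or more). Adding library number, which ends the library name, to the model nevertheless changed which of the genes described below were called. With it as a covariate 39 of the 55 higher and 4 of the 12 lower genes were still called. Idh2, Car3, Vgll2, Hspb7, Gpd1 and Mstn were among those that were not. The recovered reads are PCR products without molecular identifiers. Ranges of reads run over different mice, so they hold differences between mice and in depth and do not measure counting error. The strand used for counting is not stated, so reads of a gene and of a neighbour on the other strand may be mixed. Overlapping genes and shared 3′ ends are named below for some genes only.

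Across the 8828 other genes, 55 were higher in Myh7-high mice (0.623% of the genes tested) and 12 were lower (0.136%) at an adjusted p under 0.05. At these shares a short gene list would often hold no call. For each list below, the absence of a call therefore says little about its members. With quantile normalization 61 were higher and 25 lower. Before adjustment, 454 genes were higher and 392 lower at p under 0.05. Differences ran from 0.29 to 3.08 on the log2 scale among the genes that were higher and from -0.94 to -0.33 among those that were lower, against a median of -0.01 and a median SE of 0.13 over all genes. The groups did not overlap for 27 of the 55 higher genes, where 0.317% of all genes had no overlap in that direction, and for 1 of the 12 lower genes, where the figure was 0.0453%. Since Myh7 in these same muscles defined the groups, each call is an association with the Myh7 level across mice and not an effect of a treatment.

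**Figure D2:**
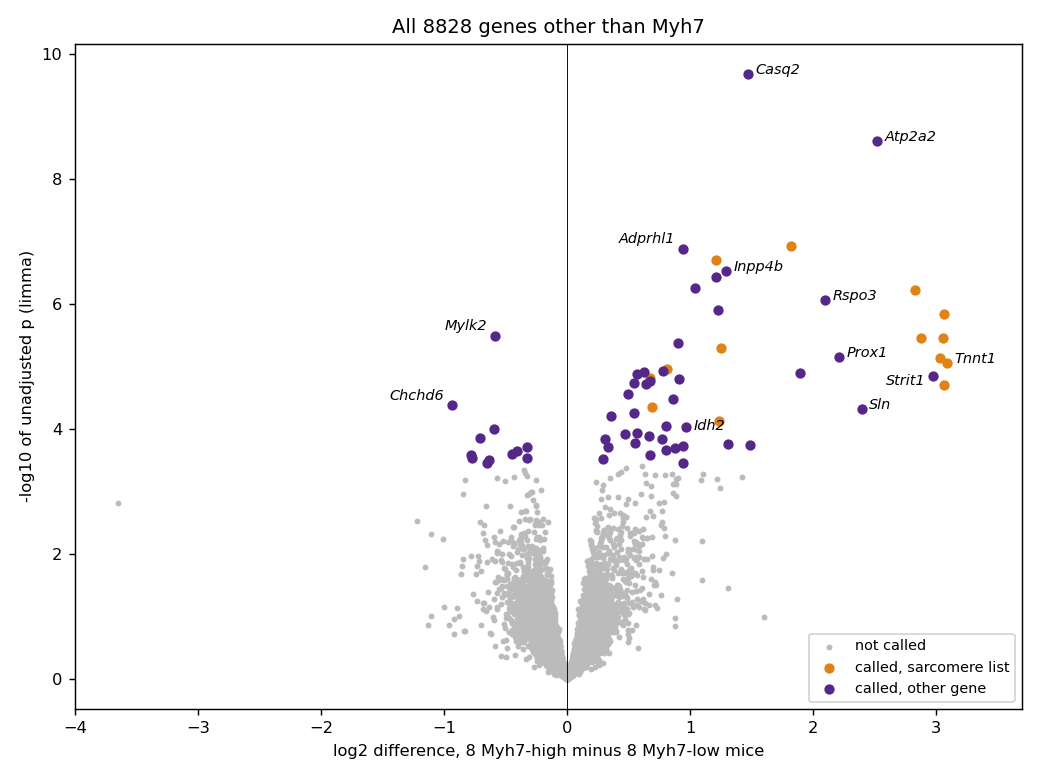
Difference in log2 CPM between the 8 Myh7-high and the 8 Myh7-low mice (horizontal axis) against -log10 of the unadjusted p (vertical axis) for 8828 genes; orange points are called sarcomere genes, purple points other called genes and grey points genes not called. Most called genes lie on the right, with 55 higher and 12 lower, and Casq2 and Atp2a2 have the smallest p of all.

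Of the 55 higher genes, 14 belonged to the sarcomere lists. The list of 11 slow sarcomere genes tested had a median difference of 2.83. Of these genes 9 were called, all higher, where 0.623% of all genes were higher. They included Tpm3, the slow tropomyosin (2.83 ± 0.40, adjusted p = 0.000592), and the Z-disc and M-band proteins Myoz2 (1.82 ± 0.23, adjusted p = 0.000299) and Myom3 (1.21 ± 0.16, adjusted p = 0.00035). None of the 13 fast sarcomere genes was called, and 12 of them had negative differences with a list median of -0.13. The exception in sign was Myh2, at 0.89 ± 0.23 (adjusted p = 0.0732). Among 43 other sarcomere genes 5 were called, all higher, among them Myh6, the alpha cardiac myosin (3.06 ± 0.46, adjusted p = 0.00107), whose 3′ ends share 19.3% of their 31-base words with those of Myh7, so that reads could be assigned to either. The other 41 higher genes and all 12 lower genes lay outside these lists and are described next.

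Calcium handling by the sarcoplasmic reticulum gave the genes with the smallest p of the whole comparison. Casq2 encodes the cardiac and slow-fibre calsequestrin, which stores calcium inside the reticulum, and lies on chromosome 3 of GRCm38 from 102086415 to 102146514. It ranged from 5.27 to 6.09 log2 CPM in the Myh7-high mice (median 5.77) and from 3.80 to 4.54 in the Myh7-low mice (median 4.24). The groups did not overlap, and the difference was 1.47 ± 0.13, or 2.76-fold (adjusted p = 1.87e-06). On the same strand, the genes 4632404M16Rik and Gm43244 overlap Casq2. Atp2a2, on chromosome 5 from 122453513 to 122502225, encodes SERCA2, the calcium pump of heart and slow fibres. It ranged from 8.19 to 9.44 (median 8.89) against 4.92 to 7.13 (median 6.53), again without overlap, and was 5.74-fold higher (2.52 ± 0.25, adjusted p = 1.10e-05).

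The list of slow-type calcium handling had a median of 1.93. Of its 4 genes 3 were called, all higher, where 0.623% of all genes were higher. The third was Sln, which encodes sarcolipin, a small inhibitor of SERCA pumps. Sln ranged from 2.96 to 5.97 log2 CPM (median 4.17) against 0.45 to 4.15 (median 1.40), and the groups overlapped. Its difference of 2.39 ± 0.47 (adjusted p = 0.0116) was not called when Myh7 was used as a continuous measure in all 25 mice (adjusted p = 0.475), in the comparison of 6 with 6 mice (0.129) or without the variance trend (0.0549).

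Strit1, chosen here after its values were seen, encodes the micropeptide DWORF, which binds SERCA and raises its activity. It ranged from 5.13 to 6.42 log2 CPM (median 5.90) against -1.04 to 4.08 (median 3.72), without overlap. At 2.98 ± 0.53 (adjusted p = 0.00491) its difference was of the size of those of the slow sarcomere genes, and without Thymol 20, which had 2 reads of it, it was 2.41. In the list of calcium release and fast-type handling none of 18 genes was called, and 15 had negative differences. Atp2a1, the fast-fibre pump SERCA1, had -0.22 ± 0.08 (adjusted p = 0.297), and Pvalb, the cytosolic calcium buffer parvalbumin, -0.26 ± 0.08 (adjusted p = 0.232). None of 16 ion channel and pump genes of the fibre membrane was called either.

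Of 27 regulators of the slow programme tested, 2 were called, both higher, where 0.623% of all genes were higher. These were Prox1 and Vgll2, and the list median was 0.05. Prox1 encodes a homeodomain transcription factor known from lymphatic vessels and from slow muscle fibres. It ranged from 2.99 to 4.77 log2 CPM in the Myh7-high mice (median 3.69) and from -0.30 to 2.95 in the Myh7-low mice (median 1.91). The groups did not overlap, and the difference was 2.21 ± 0.37 (adjusted p = 0.00338). An antisense gene, Prox1os, overlaps it on the other strand.

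Vgll2 encodes a muscle cofactor of the TEAD transcription factors. It ranged from 6.29 to 7.08 (median 6.57) against 5.19 to 6.57 (median 5.92), and its difference of 0.80 ± 0.18 (adjusted p = 0.0339) was not called in 9 of the 16 fits that left out 1 mouse, with the highest adjusted p, 0.0990, without Thymol 30. Ppargc1a, which encodes the coactivator PGC-1alpha, differed by 0.07 ± 0.13 (adjusted p = 0.931) and was picked for mention after its value was seen. The calcineurin subunits Ppp3ca and Ppp3cb had -0.13 and -0.16 (adjusted p = 0.423 and 0.383). None of 20 regulators of the fast programme was called, and their median was -0.10. Mafa had the lowest value of that list, -0.39 ± 0.12 (adjusted p = 0.176).

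The other genes with a small p outside the sarcomere lists have varied roles. Rspo3, a secreted enhancer of Wnt signalling, ranged from 2.91 to 4.60 log2 CPM (median 3.86) against 0.32 to 2.88 (median 1.90). The groups did not overlap, and the difference was 2.10 ± 0.30, or 4.28-fold (adjusted p = 0.000778). Angpt1, the angiopoietin ligand of the endothelial receptor TIE2, ranged from 4.67 to 5.31 (median 4.88) against 3.40 to 4.57 (median 4.14), at 0.90 ± 0.15 (adjusted p = 0.00237). Fgf1, a fibroblast growth factor, ranged from 4.26 to 4.75 (median 4.64) against 3.38 to 4.61 (median 3.71), at 0.78 ± 0.14 (adjusted p = 0.00469), and overlapped between the groups through 1 Myh7-low mouse. Fgf1 lies across from Arhgap26, and Angpt1 was not called with Myh7 as a continuous measure (adjusted p = 0.131).

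Inpp4b, a phosphatase of phosphoinositide lipids, ranged from 3.69 to 4.69 log2 CPM (median 4.06) against 2.39 to 3.57 (median 2.64), a difference of 1.29 ± 0.17 (adjusted p = 0.000436). Homer2, a scaffold protein of calcium signalling complexes, ranged from 5.77 to 6.71 (median 6.16) against 4.07 to 5.59 (median 5.03), at 1.22 ± 0.18 (adjusted p = 0.00102). Neither overlapped between the groups. Pdlim1, a PDZ and LIM protein that binds alpha-actinin, was 2.31-fold higher (1.21 ± 0.17, adjusted p = 0.000468) and Ablim1, an actin-binding LIM protein, 2.05-fold higher (1.04 ± 0.15, adjusted p = 0.000592). Pdlim1 shares 14.8% of its 3′ words with the predicted gene Gm5864, and Inpp4b overlaps Gm17072 on the same strand.

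Adprhl1, a relative of the ADP-ribosyl hydrolases that is abundant in heart, ranged from 5.12 to 5.72 log2 CPM (median 5.41) against 4.13 to 4.83 (median 4.38), without overlap, at 0.94 ± 0.12 (adjusted p = 0.000299). Lgi1, a secreted synaptic protein named after its values were seen, was higher by 1.89 ± 0.33 (adjusted p = 0.00469), and 12.2% of its 3′ words recur in the predicted gene Gm3888. Among 22 endothelial markers none was called and the median was 0.00, with summed levels of 646 to 1003 CPM in the Myh7-high mice and 690 to 917 in the Myh7-low mice.

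**Figure D3:**
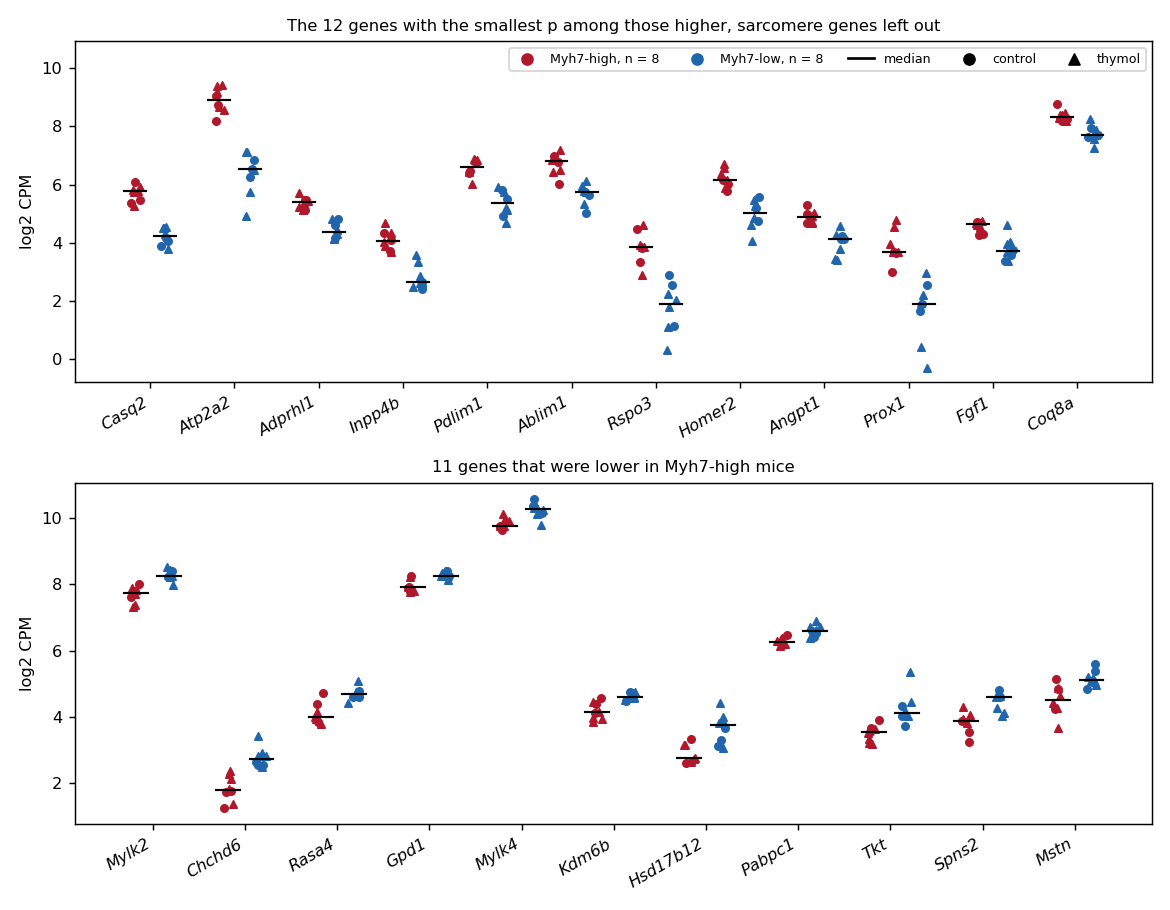
Levels in log2 CPM (vertical axes) of 12 genes that were higher and 11 that were lower in Myh7-high mice, with sarcomere genes left out; each point is 1 mouse (circle control, triangle thymol), red marks Myh7-high and blue Myh7-low mice, and lines are medians. Casq2 and Atp2a2 separate the groups fully, whereas Gpd1 and Mylk4 overlap.

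Of 37 complex I genes and 42 genes of complexes II to V none was called, where 0.623% of all genes were higher and 0.136% lower. Their list medians were 0.04 and 0.06, beside -0.01 for all genes. Positive differences were found for 25 of the former and 37 of the latter, where 46.8% of all genes were positive. The 7 genes of the mitochondrial genome had a median of 0.02. Ndufb3, with the smallest p among the complex I genes above 0, had 0.28 ± 0.07 (adjusted p = 0.104).

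Of 20 genes of the citric acid cycle 1 was called, where 0.623% of all genes were higher. Idh2, the mitochondrial NADP-dependent isocitrate dehydrogenase, ranged from 7.82 to 8.44 log2 CPM (median 8.04) against 5.81 to 8.05 (median 7.23), with a difference of 0.96 ± 0.20 (adjusted p = 0.0199). It was not called without Control 14 or without Thymol 30 (highest adjusted p = 0.0558, without Thymol 30). Coq8a, an atypical kinase of coenzyme Q synthesis, ranged from 8.19 to 8.76 (median 8.34) against 7.26 to 8.25 (median 7.70), at 0.62 ± 0.11 (adjusted p = 0.00469, and 0.0508 with 10 against 10 mice). Cs, which encodes citrate synthase, differed in RNA level by -0.01 ± 0.07 (adjusted p = 0.992).

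Fatty acid uptake and oxidation leaned one way without a call. Of 31 genes 28 had positive differences with a median of 0.25, 18 of them at an unadjusted p under 0.05, and none was called. Of all 8828 genes 46.8% had positive differences, and 454 were higher at that unadjusted p. Fabp3, the fatty acid binding protein of heart and oxidative fibres, ranged from 8.22 to 9.42 log2 CPM (median 8.80) against 7.77 to 9.11 (median 8.13), at 0.64 ± 0.16 (adjusted p = 0.0705). Hadhb, a subunit of the mitochondrial trifunctional protein of beta-oxidation, had 0.41 ± 0.13 (adjusted p = 0.201), and Slc27a1, a fatty acid transporter, 0.51 ± 0.16 (adjusted p = 0.211). The 13 lipid droplet genes had a median of 0.02 and none was called.

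Glycolysis leaned the other way. Of 23 genes 17 had negative differences with a median of -0.14, where 46.8% of all genes had positive ones. A call was made for 1 of the 23, lower, where 0.136% of all genes were lower. Gpd1, the cytosolic glycerol-3-phosphate dehydrogenase of the NADH shuttle, ranged from 7.79 to 8.26 log2 CPM (median 7.91) against 8.13 to 8.42 (median 8.27), at -0.33 ± 0.07 (adjusted p = 0.0316). The groups overlapped, and it was not called in 9 of the fits without 1 mouse (highest adjusted p = 0.0940, without Thymol 30). The lactate dehydrogenase subunits had opposite signs, with Ldhb, the heart form, at 0.90 ± 0.22 (adjusted p = 0.0650) and Ldha, the fast-fibre form, at -0.29 ± 0.08 (adjusted p = 0.0913, named after its value was seen). Slc16a3, a lactate exporter, had -0.34 ± 0.08 (adjusted p = 0.0624). The 16 glycogen genes had a median of -0.09 and none was called.

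Of 15 genes that buffer oxygen, carbon dioxide or energy, 1 was called, where 0.623% of all genes were higher. Car3, the carbonic anhydrase of oxidative fibres and fat, ranged from 11.14 to 11.74 log2 CPM (median 11.41) against 10.71 to 11.33 (median 10.88), at 0.47 ± 0.10 (adjusted p = 0.0237). The call was absent in 6 of the fits without 1 mouse (highest adjusted p = 0.0658, without Thymol 30). Mb, the oxygen-binding protein myoglobin, had 0.60 ± 0.16 (adjusted p = 0.0938).

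A list of heat shock proteins and their co-chaperones holds the small heat shock proteins and larger chaperones such as Hsp90aa1. It gave 2 calls among 12 genes, both higher, with a median of -0.05, where 0.623% of all genes were higher. Hspb6, which binds actin and other muscle proteins, ranged from 10.54 to 11.09 (median 10.79) against 9.91 to 10.76 (median 10.31), at 0.50 ± 0.09 (adjusted p = 0.00738), and was not called with Myh7 as a continuous measure (adjusted p = 0.545), without the variance trend (0.0521) or with the tendon score (0.0612). Hspb7, a chaperone of the sarcomere in heart and skeletal muscle, had 0.94 ± 0.21 (adjusted p = 0.0316) and was not called in 9 of the fits without 1 mouse (highest adjusted p = 0.0904, without Thymol 30). Its call was also lost with Myh7 as a continuous measure, without the variance trend, with library number and with the tendon score (highest adjusted p = 0.621). Hspb6 lies across from Lin37 and Proser3. No antioxidant gene of 21 was called.

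**Figure D4:**
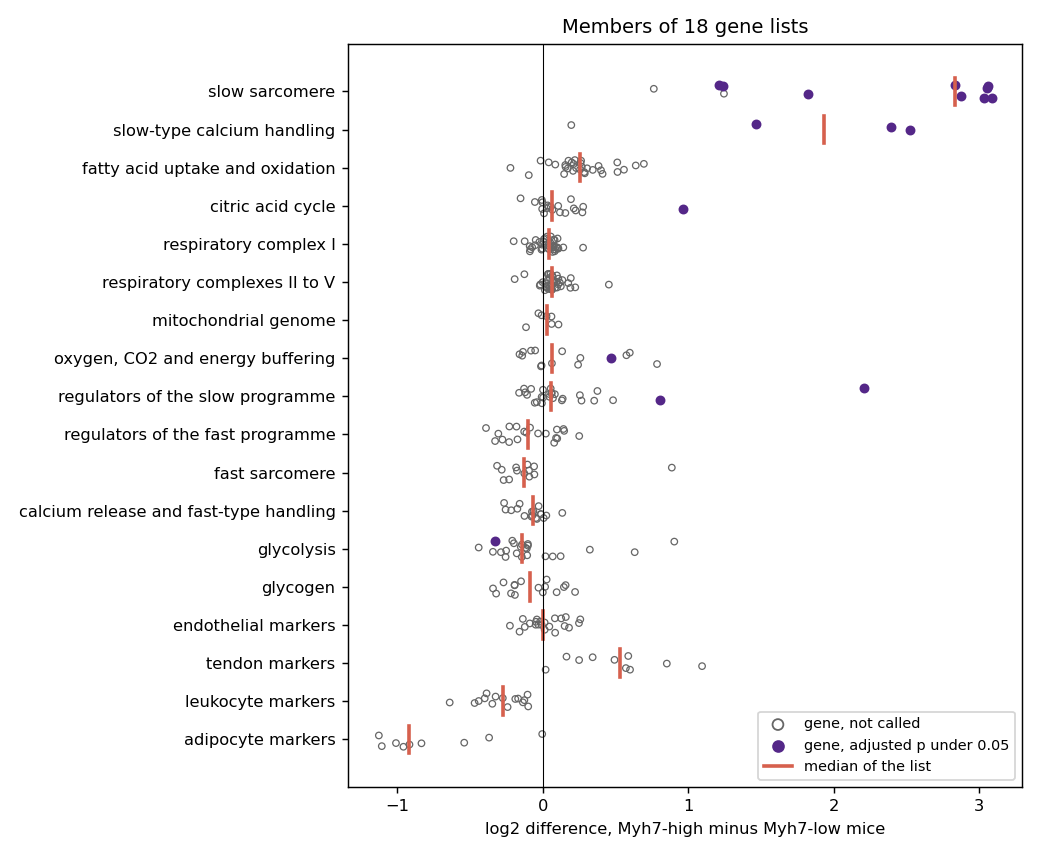
Log2 difference between Myh7-high and Myh7-low mice (horizontal axis) for the members of 18 gene lists; open circles are genes that were not called, filled circles genes with an adjusted p under 0.05, and bars list medians. Slow sarcomere and slow-type calcium genes lie far to the right with medians of 2.83 and 1.93, whereas the respiratory lists centre near 0.

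The 12 lower genes were fewer and changed less, and none was in a sarcomere list. Mylk2 encodes the skeletal muscle myosin light chain kinase, and lies on chromosome 2 from 152911352 to 152923068. It ranged from 7.32 to 8.01 log2 CPM in the Myh7-high mice (median 7.76) and from 7.98 to 8.53 in the Myh7-low mice (median 8.26). The groups barely overlapped, and the difference was -0.59 ± 0.09, or 0.665-fold (adjusted p = 0.00209). Chchd6, a protein of the complex that shapes mitochondrial cristae, ranged from 1.23 to 2.35 (median 1.79) against 2.495 to 3.43 (median 2.71), without overlap, at -0.94 ± 0.18 (adjusted p = 0.0106). Both were called in every fit that left out 1 mouse, and neither was called with Myh7 as a continuous measure in 25 mice (adjusted p = 0.0508 and 0.0610).

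The other 10 lower genes lost the call when single mice were left out, in 1 fit for Rasa4 and in up to 13 of 16 fits for the others. Rasa4, a calcium-responsive Ras GTPase-activating protein, ranged from 3.77 to 4.72 log2 CPM (median 3.99) against 4.40 to 5.08 (median 4.68), at -0.60 ± 0.12 (adjusted p = 0.0209, and 0.0523 without Thymol 30). Mylk4, a further myosin light chain kinase, had -0.41 ± 0.09 (adjusted p = 0.0343, and 0.0804 without Control 14).

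Mstn, which encodes myostatin, the secreted inhibitor of muscle growth, ranged from 3.68 to 5.16 log2 CPM (median 4.51) against 4.84 to 5.604 (median 5.12). The groups overlapped, and the difference was -0.65 ± 0.15 (adjusted p = 0.0472, and 0.123 without Control 23). Mstn was the only 1 of 20 atrophy and myostatin pathway genes that was called, where 0.136% of all genes were lower. The list median was 0.08. Fst, the myostatin antagonist follistatin, had 0.77 ± 0.22 (adjusted p = 0.145). Tkt, the transketolase of the pentose phosphate pathway, had -0.77 ± 0.18 (adjusted p = 0.0418, and 0.107 without Thymol 30). Other calls were Kdm6b (a histone demethylase, -0.45), Hsd17b12 (an enzyme of fatty acid elongation, -0.78), Pabpc1 (the poly(A) binding protein, -0.33) and Spns2 (a lipid transporter, -0.63), with adjusted p from 0.0375 to 0.0430 and each lost without 11 to 13 single mice. Kdm6b and Spns2 overlap other genes on the opposite strand.

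How steeply the genes followed Myh7 differed among them. Over all 25 muscles, with treatment as a covariate, the slope per log2 unit of Myh7 is a description, because these muscles include those that gave the calls. Of the 55 higher genes 8 had slopes from 0.7 to 1.1, which were Myl3, Tnnt1, Tnnc1, Strit1, Tnni1, Myh6, Myl2 and Tpm3. Strit1, at 0.90, was the only one of them outside the sarcomere lists. A further 6 had slopes from 0.4 to 0.7, among them Atp2a2 at 0.63, Prox1 at 0.58, Lgi1 at 0.52 and Rspo3 at 0.50. Casq2 had 0.28 despite its small p, and 27 genes had slopes of 0.2 or less. Thymol 20, at 1.68 log2 CPM of Myh7 where the next muscle had 5.64, weighs heavily on these slopes. The 8 genes with slopes of 0.7 or more are also those furthest below the other Myh7-low mice in Thymol 20, so these are not separate results.

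**Figure D5:**
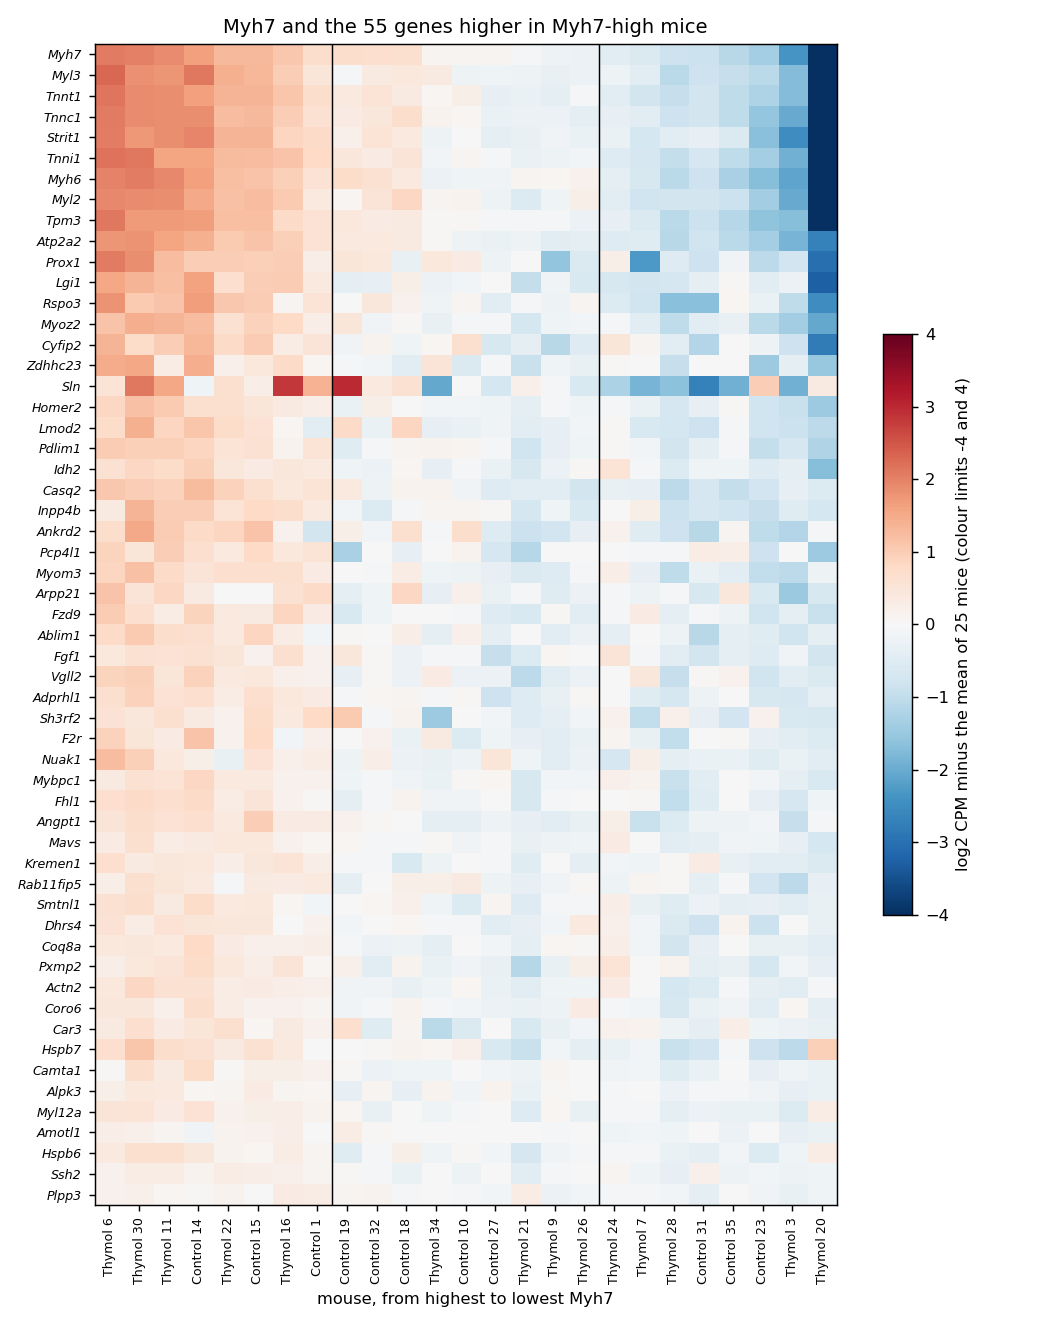
Level of Myh7 and of the 55 genes higher in Myh7-high mice (rows, ordered by their slope on Myh7) in 25 muscles (columns, from highest to lowest Myh7), as log2 CPM minus the mean over the 25 mice, with colour limits at -4 and 4. The rows with slopes of 0.7 or more copy the gradient of Myh7 down to Thymol 20, and lower rows change by less.

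Thymol 20 shows which of the genes went down with Myh7 in a muscle with almost none of it, and was singled out after its values were seen. Compared with the median of the other 7 Myh7-low mice, 11 of the 55 higher genes were at least 2 log2 units lower in it, and 7 of these were sarcomere genes. Tnnt1 lay at -4.91 and Strit1 at -4.82 relative to that median, and Lgi1 at -2.86 and Prox1 at -2.24. For 28 of the 55 genes Thymol 20 lay inside the range of the other 7 mice, Casq2 at 4.30 log2 CPM among them, and for 3 it lay above them. Hspb7, at 8.80 log2 CPM, and Hspb6, at 10.76, were highest of the Myh7-low mice in this muscle. Without Thymol 20, 52 genes were higher and 8 lower, of which 48 and 7 were among the 55 and 12, and Atp2a2, Prox1 and Rspo3 had differences of 2.30, 1.91 and 1.90.

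The 9 muscles of middle rank, which the comparison did not use, spanned only 7.76 to 8.69 log2 CPM of Myh7. In them 38 of the 55 higher genes (69.1%) had a positive slope on Myh7, where 50.7% of all genes did. All 11 slow sarcomere genes tested, of which 9 were among the 55, had a positive slope, as did 27 of the 41 higher genes outside the sarcomere lists. Of the 12 lower genes 4 had a negative slope, where 49.3% of all genes did. Casq2 had a slope of 1.02, Atp2a2 of 1.13 and Prox1 of 1.03, whereas Pdlim1 had -0.19 and Mylk2 0.21. A single gene passed an adjusted p under 0.05 (0.0113% of the genes tested), the ribosomal protein gene Rpl34 with a slope of -10.63, and 299 had an unadjusted p under 0.05. Rpl34 was noticed for this value and was not called with voom.

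The difference between Myh7-high and Myh7-low muscles was also compared between control and thymol mice. For 0 genes (0%) did the interaction pass an adjusted p under 0.05 (limma), and 329 genes, or 3.73%, had an unadjusted p under 0.05. The smallest adjusted p was 0.9997. With 3 control and 5 thymol mice on each side the median SE of the interaction was 0.27 on the log2 scale, against 0.13 for the difference itself, so that only large interactions could have been seen.

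Markers of other tissues leaned with the groups. All 10 tendon markers had positive differences with a median of 0.53, and their summed level was 209 to 605 CPM in the Myh7-high mice and 146 to 369 in the Myh7-low mice. Chad, a cartilage and tendon matrix protein, had 1.09 ± 0.36 (adjusted p = 0.233), and Scx, the transcription factor of tendon cells, 0.57 ± 0.20 (adjusted p = 0.266). None was called. With the tendon score as a covariate 35 genes were higher and 4 lower, of which 32 and 3 were among the 55 and 12. Casq2, Atp2a2 and Rspo3 were called and differed by 1.45, 2.37 and 2.02, whereas 32 of the 67 genes, among them Myl3, Idh2, Car3, Vgll2, Hspb6, Gpd1 and Mstn, were not called.

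All 9 adipocyte markers had negative differences with a median of -0.92, and none was called. Their summed level was 242 to 589 CPM against 198 to 2195, so that the spread was wider among Myh7-low muscles. All 15 leukocyte markers were negative as well, with a median of -0.28, none called, and 148 to 322 CPM against 152 to 512. With the adipocyte score as a covariate 82 genes were higher and 20 lower, of which 53 and 10 were among the 55 and 12. With the leukocyte score the counts were again 55 and 12, but only 48 and 8 were the same genes. The part of tendon, fat and leukocytes in the calls was not tested beyond these covariate fits. Markers of fibroblasts (median -0.02), pericytes and smooth muscle (0.03), Schwann cells (-0.03), satellite cells (0.09) and red cells (0.19) gave no call, and neither did neuromuscular junction and denervation genes (0.11) or immediate-early genes (0.20).

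The stretches of DNA just before the start sites of several of these genes hold motifs known from muscle genes, and 4 are shown. Myh7 is shown because it defined the groups, and Casq2, Myoz2 and Myom3 because they were the 3 higher genes with the smallest p among those with a MEF2 match, so they were chosen for that match. The sequences are from RefSeq on GRCm38.p6 and run from 250 bases before to 50 bases after the start site of the gene, 5′ to 3′ on the strand of the gene. Capitals mark motifs that were searched on both strands, which were the MCAT element CATTCC (bound by TEAD factors), the E-box CAGCTG, the NFAT core GGAAAA and the MEF2 site.
Myh7, chr14:54994577-54994876, minus strand, MCAT on the other strand at -201: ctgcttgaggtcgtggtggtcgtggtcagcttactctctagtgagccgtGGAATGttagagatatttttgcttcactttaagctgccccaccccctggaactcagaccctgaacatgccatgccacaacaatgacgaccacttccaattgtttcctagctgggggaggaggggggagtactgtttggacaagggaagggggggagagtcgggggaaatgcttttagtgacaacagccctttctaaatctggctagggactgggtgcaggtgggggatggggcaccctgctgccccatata
Casq2, chr3:102086165-102086464, plus strand, MEF2 at -69: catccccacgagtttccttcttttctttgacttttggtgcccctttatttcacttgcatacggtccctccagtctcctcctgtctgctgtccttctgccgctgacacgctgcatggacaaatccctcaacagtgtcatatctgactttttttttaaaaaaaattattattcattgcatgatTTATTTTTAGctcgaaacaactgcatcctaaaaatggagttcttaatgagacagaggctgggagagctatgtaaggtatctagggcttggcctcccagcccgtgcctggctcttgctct
Myoz2, chr3:123034938-123035237, minus strand, MEF2 at -33 and E-box at -12: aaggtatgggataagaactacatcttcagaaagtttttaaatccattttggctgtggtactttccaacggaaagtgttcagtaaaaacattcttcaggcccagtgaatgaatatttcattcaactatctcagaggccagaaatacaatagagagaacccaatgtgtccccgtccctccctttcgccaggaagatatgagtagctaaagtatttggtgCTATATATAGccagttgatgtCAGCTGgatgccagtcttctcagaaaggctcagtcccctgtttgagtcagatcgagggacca
Myom3, chr4:135759465-135759764, plus strand, NFAT core at -189 and MEF2 at -35: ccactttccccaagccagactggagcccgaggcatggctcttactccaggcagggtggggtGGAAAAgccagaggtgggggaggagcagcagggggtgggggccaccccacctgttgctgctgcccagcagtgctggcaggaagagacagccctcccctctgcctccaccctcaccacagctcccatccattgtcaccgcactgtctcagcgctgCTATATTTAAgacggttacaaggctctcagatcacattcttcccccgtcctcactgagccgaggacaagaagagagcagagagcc

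Of the 55 higher genes 46 had a promoter in the reference table, with 68 promoters in all. The MEF2 site was present in 10.3% of these 68 and in 3.19% of all 32851 promoters, and the E-box in 29.4% and 16.3%. The MCAT element was present in 16.2% and 14.7%, and the NFAT core in 19.1% and 23.4%. The 32851 promoters are those of the whole reference table and not only of the genes tested here. Whether other genes expressed in this muscle hold these motifs as often was not tested. The MEF2 matches were in 7 promoters. The percentages include chromosome 18. With chromosome 18 left out, where Fgf1 and Sh3rf2 lie, 5 genes held a match. Besides Casq2, Myoz2 and Myom3 these were Alpk3, a muscle kinase, and Arpp21, a cyclic AMP-regulated phosphoprotein. Promoters of the same gene can overlap, and a match shows only that these letters occur in the window.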

How the data were processed

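Gastrocnemius RNA of 25 mice was profiled by QuantSeq 3′ sequencing. Per the labels and the methods of the study, the authors aligned reads with STAR 2.5.3 and counted them per gene with HTSeq 0.6.1, and they deposited log2 CPM values with TMM scaling for 8829 genes, of which 8828 were tested and Myh7 was not. Values were analysed as deposited. Read numbers were recovered from the steps between values (100% whole within 0.1 reads, about 2 reads added by the authors to a library of mean size), and every gene had at least 32 reads in 6 mice.

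The 25 mice were ranked by Myh7, and the 8 highest were compared with the 8 lowest by limma 3.58.1 in R 4.3.3 (linear model with treatment as a covariate, empirical Bayes moderation with trend, two-sided, Benjamini-Hochberg adjustment over 8828 genes, threshold 0.05). A log2 difference is the fitted Myh7-high minus Myh7-low value, and its SE follows it. Genes were named by a rule: Tnnt1, Tnni1 and Myl2, then, outside the sarcomere lists, the 12 called higher and the 12 called lower with the lowest p, then up to 3 per direction of each gene list. Not all are printed, 1 gene called lower is not reported here, and genes outside the rule are marked. The members, the lists and the rule were chosen with earlier results of these data known. The procedure was run on simulated data with independent noise for each gene. That setting does not imitate groups chosen by the order of 1 gene that others follow. Each library came from 1 mouse, and p-values measure the spread between mice.

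Alternatives changed the ranking, the group size, the covariates, the scaling, the filter, the pseudocount, the model or the mice, and included voom on the recovered reads. Positions are from the GRCm38 annotation. Depth, mitochondrial share and library number were compared with exact permutation tests (scipy 1.17.1). Plots used matplotlib 3.10.9.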

Additional observations from a re-analysis of the deposited data

Results flagged for a closer look

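Within each group of 8 mice, 30 measures (the slow-fibre genes, the genes named by p and the library measures) were searched for a mouse whose gap to its nearest neighbour exceeded 0.526 of the group's range, a limit that chance passes in about 1 in 20 groups. This was so in 7 of 60 groups. The chance figure is for random samples, and it does not hold for Myh7 and the genes that follow it, because the Myh7-low mice are the end of an order by Myh7. In 4 of them the mouse was Thymol 20 among the Myh7-low mice, at 1.68 log2 CPM for Myh7, 2.83 for Tnnt1, 1.29 for Tnni1 and 2.74 for Myl2, where the other 7 mice had medians of 7.12, 7.74, 5.72 and 6.92. The other 3 were Coq8a in Control 14 among the Myh7-high mice (8.76, the others 8.19 to 8.45), Chchd6 in Thymol 3 among the Myh7-low mice (3.43, the others 2.495 to 2.92) and Tkt in Thymol 7 among the Myh7-low mice (5.35, the others 3.73 to 4.44).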

How the results depend on the processing

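Against 55 genes higher and 12 lower, the higher count was 118 with 6 against 6 mice, 33 without the variance trend and 35 with the tendon score as a covariate. The lower count was 25 with quantile normalization, 6 with median centring, 4 without the trend, 5 with library number, 20 with the adipocyte score and 4 with the tendon score as covariates. With library number as a covariate 39 of the 55 and 4 of the 12 genes were still called. Leaving out each of 16 mice gave 38 to 76 higher and 2 to 14 lower, the fewest lower without Thymol 30, and 37 of the 55 and 2 of the 12 genes were called in all 16 fits. With Myh7 continuous in 25 mice, 65 were higher and 8 lower, of which 37 and 0 were among the 55 and 12. Over 21 other alternatives and the 16 fits, 25 of the 67 genes, all higher and 16 outside the sarcomere lists, kept the call in each fit that included them (6 of the 25 were tested under 20 of the 21, being part of the ranking or removed by the filter), and none of the 67 changed sign. The single gene called in the 9 other mice fell to 0 without the trend and with voom.

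A block on the first number of the label gave 55 higher and 13 lower, with a correlation within numbers of -0.08. What that number marks is not stated, so it was not taken as pairing. The scaling choices moved the median difference of all genes from -0.01 to 0.00. The narrow range of Myh7 in the 9 other mice and 3 control mice per side limit the slope and interaction fits.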
